A study of Mus musculus with 46 samples.

Results

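Established induced pluripotent stem cells (iPSC) were compared with mouse embryonic fibroblasts (MEF). The comparison rests on 14 of the 46 samples of the series, which were chosen by their labels and not by any measured value: 12 iPSC samples against 2 MEF samples, on transcript levels summed to 1 value per gene. Of the iPSC samples, 6 were made with Oct4 and NanogN70, in which Nanog is joined to the N-terminal, BRG1-binding stretch of the BAF subunit SS18, and 6 with Oct4 and native Nanog. Each combination had a mean of its own in the fit, and the iPSC mean was the mean of both group means.

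By the study's methods the MEF have the OG2 background, in which a GFP reporter is driven by Oct4 regulatory sequence. The MEF came from mid-gestation embryos of either sex with an OG2 and a 129 parent and, to make the iPSC, were infected with retroviruses that carry the factors. The labels do not say whether the MEF that were sequenced had been infected. The sample titles do not name the cells that each iPSC sample was made from, and the study also made iPSC from neonatal and tail tip fibroblasts. The iPSC were kept without feeder cells in N2B27 medium with LIF and both 2i inhibitors. MEF were grown in DMEM with serum, by the same methods. The labels divide the iPSC into iPSC1 with 7 samples and iPSC2 with 5, and give each sample a number. A numbered sample is called a clone here for short, although the labels do not say how it was derived. The column headers give passage 2 for MEF and for iPSC2, and passages 5 and 6 for iPSC1. Nanog iPSC1 clones 1 and 1-2 share a clone number and count here as 2 samples. Nothing says that the samples of a group came from separate infections, so the p-values measure the spread between these samples. Cell type, culture medium and passage history differ together between the groups, and their parts cannot be told apart. One library of OG2 embryonic stem cells (mES) served as a reference without replicate and entered no test.

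A fibroblast builds connective tissue. It secretes collagens and other matrix proteins, pulls on them with actin and myosin fibres, and keeps its identity through mesenchymal transcription factors such as Prrx1, Twist1 and the AP-1 proteins. A naive pluripotent cell is an epithelial-like, fast cycling cell that grows in tight colonies. Its network of transcription factors around Oct4, Sox2, Nanog and Esrrb sustains itself and represses lineage genes. Reprogramming exchanges the first state for the second.

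The levels are FPKM, fragments scaled by transcript length and by the number of mapped fragments. Differences were computed as iPSC minus MEF on log2(FPKM + 1), a scale that understates the change of low genes, and 13312 of 35976 genes passed the filter of at least 1 FPKM in at least 2 of the 14 samples. Calls required both a 2-fold difference (1 on the log2 scale) in either direction and a limma p under 0.05 after Benjamini-Hochberg adjustment. Unless said otherwise, adjusted p-values come from limma. For genes listed at 0 in both MEF libraries the fitted difference depends on the added 1 and is left out. In bulk RNA, fewer cells of a type and less RNA per cell cannot be told apart.

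The cells differed over a large part of the transcriptome. Of the genes tested, 2886 were called higher in iPSC (21.7%) and 2492 lower (18.7%), together 5378 (40.4%). The median log2 difference was 1.51 among genes called higher and -1.78 among genes called lower, and 305 and 435 genes were beyond 3 on the log2 scale. The 12 iPSC values and the 2 MEF values did not overlap for 63.6% of all genes tested, 37.2% with iPSC above and 26.4% with iPSC below. Counts of lists below are read against these shares, and list medians include the fitted values of genes at 0 in MEF. The summed FPKM was 396871 to 435908 in iPSC and 354804 and 356908 in MEF, and the median of all genes tested was 0.21 higher in iPSC on the log2 scale. Rescaled to a common total this median was 0.025, with 2832 genes called higher and 3216 lower. After quantile normalization it was 0.14, with 2572 and 2617.

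**Figure D1:**
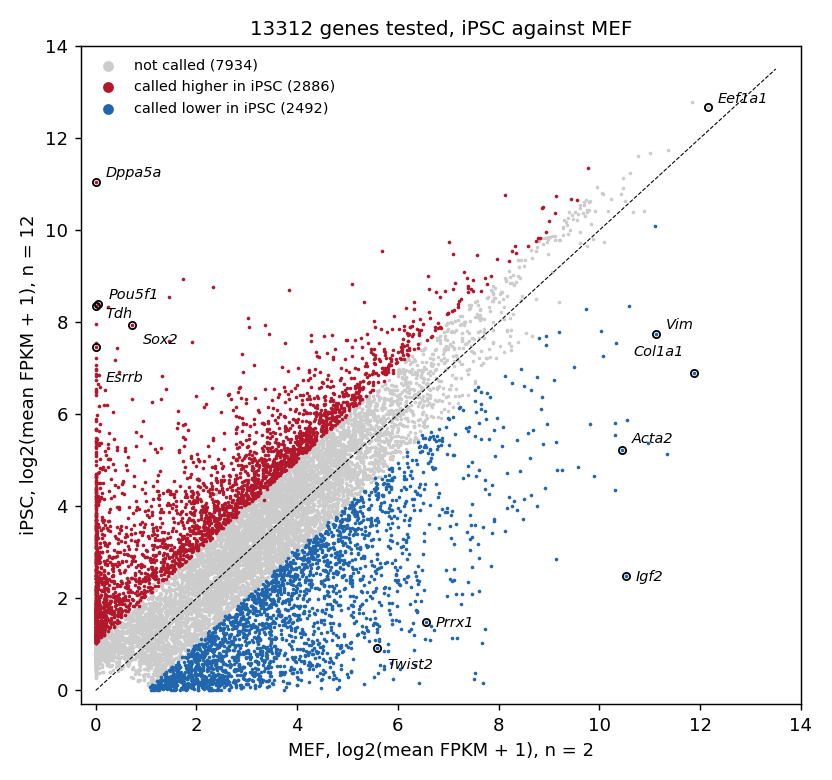
Mean level in MEF (x axis, 2 samples) against mean level in iPSC (y axis, 12 samples) as log2(mean FPKM + 1) for the 13312 genes tested, with called genes in colour and the dashed line marking equal levels. Called genes spread along both axes: pluripotency genes such as Dppa5a and Pou5f1 lie at the left edge, close to 0 in MEF, and fibroblast genes such as Igf2 and Twist2 lie low on the right, while Eef1a1 lies near the line.

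Promoter sequences of 5 transcription factors are printed so that genes from either side of the exchange can be seen beside each other. Sox2, Utf1 and Tfcp2l1 stood among the pluripotency factors with the largest increases, and Prrx1 and Twist2 had the largest decreases among mesenchymal factors. Each line gives the 250 bases before the start of the gene's single promoter entry, 5′ to 3′ on the gene's strand, from RefSeq (GRCm38.p6). For Prrx1 this start lies inside the annotated span of the gene, and the whole window lies within that span. The Tfcp2l1 window runs past the first base of the gene's span. Capitals mark matches on either strand to GGGCGG (GC box), CCAAT and TATAAA, where neighbouring GC boxes can overlap each other. ATGCAAAT (octamer) and TGANTCA (AP-1) were also searched and have no match in these windows.
Sox2 (chr3:34649745-34649994, plus strand): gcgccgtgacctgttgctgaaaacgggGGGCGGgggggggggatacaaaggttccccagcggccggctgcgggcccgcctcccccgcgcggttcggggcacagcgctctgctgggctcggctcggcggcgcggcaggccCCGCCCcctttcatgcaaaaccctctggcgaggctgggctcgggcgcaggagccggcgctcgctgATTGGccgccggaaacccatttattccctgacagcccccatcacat
Utf1 (chr7:139943606-139943855, plus strand): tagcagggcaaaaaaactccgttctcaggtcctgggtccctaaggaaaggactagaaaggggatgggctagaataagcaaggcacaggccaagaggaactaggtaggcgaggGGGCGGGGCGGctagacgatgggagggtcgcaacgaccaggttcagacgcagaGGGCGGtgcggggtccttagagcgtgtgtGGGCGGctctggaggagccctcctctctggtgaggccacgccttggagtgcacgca
Tfcp2l1 (chr1:118627695-118627944, plus strand): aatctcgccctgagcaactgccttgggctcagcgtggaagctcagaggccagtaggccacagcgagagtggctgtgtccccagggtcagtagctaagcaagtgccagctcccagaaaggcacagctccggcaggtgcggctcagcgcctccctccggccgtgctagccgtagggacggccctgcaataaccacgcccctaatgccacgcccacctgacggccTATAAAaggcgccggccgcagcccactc
Prrx1 (chr1:163313651-163313900, minus strand): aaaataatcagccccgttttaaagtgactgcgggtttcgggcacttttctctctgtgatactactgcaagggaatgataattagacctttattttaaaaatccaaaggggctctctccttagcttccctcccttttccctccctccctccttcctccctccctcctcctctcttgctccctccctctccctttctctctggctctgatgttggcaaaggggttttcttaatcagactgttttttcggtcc
Twist2 (chr1:91801211-91801460, plus strand): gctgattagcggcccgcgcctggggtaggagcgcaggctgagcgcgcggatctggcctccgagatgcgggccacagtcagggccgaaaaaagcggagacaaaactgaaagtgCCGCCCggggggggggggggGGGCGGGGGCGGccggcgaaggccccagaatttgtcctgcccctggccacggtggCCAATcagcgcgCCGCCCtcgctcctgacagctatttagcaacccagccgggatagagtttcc
The Sox2 window holds 27 CpG dinucleotides and the Twist2 window 23, while that of Prrx1 holds 4. CpG-rich windows were thus present among factors of either side. Over the 7853 tested genes with a single RefSeq promoter entry (59.0% of those tested), a GC box was found in 58.2% of the windows of genes called higher, 65.9% of those called lower and 61.6% of all. The CCAAT box was found in 41.7%, 34.5% and 38.1%, and the AP-1 motif in 4.37%, 4.63% and 3.81%. The octamer was rare throughout, in 1.7%, 1.59% and 1.44%. These are matches to letters near the start and not binding sites.

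The delivered factors were read first. Pou5f1 (Oct4; chromosome 17) was at 261, 342 and 376 FPKM in the lowest, median and highest iPSC sample and at 0.06996 and 0 in MEF, a log2 difference of 8.35, SE 0.11, adjusted p = 3.02e-16. Nanog (chromosome 6) was at 258, 305 and 439 in iPSC and 0.237 and 0.146 in MEF, a log2 difference of 8.06, SE 0.16, adjusted p = 3.05e-14. The groups did not overlap for either gene. FPKM values do not part vector from endogenous transcripts, and the part of either was not tested. The mES library, which carries no vector, had 296 FPKM of Pou5f1 and 393 of Nanog. On chromosome 6, which holds Nanog, the median gene of mES stood 0.47 above the median iPSC sample on the log2 scale. Ss18, which gave its N-terminal piece to the fusion, was at 35.2, 45.5 and 54.5 in iPSC and 25.5 and 30.5 in MEF, and its log2 difference of 0.65, SE 0.15, adjusted p = 0.00171 was under the 2-fold limit.

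**Figure D2:**
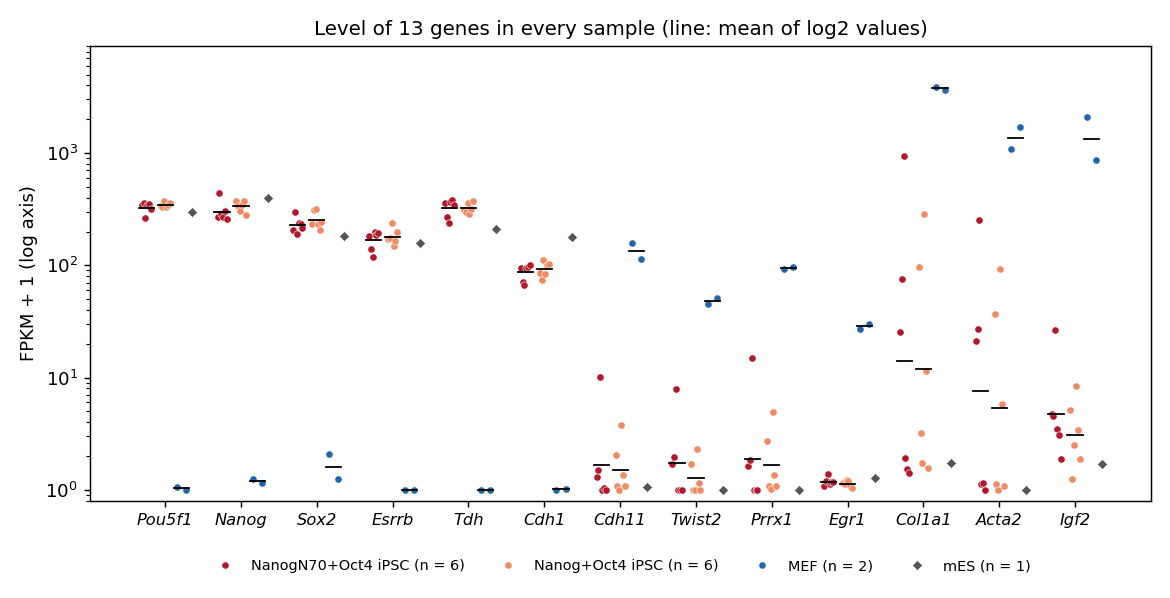
FPKM + 1 (log axis) of 13 genes in every sample: 6 NanogN70+Oct4 iPSC, 6 Nanog+Oct4 iPSC, 2 MEF and 1 mES, with the mean of the log2 values as a line. From Pou5f1 to Cdh1 all iPSC points lie in a narrow band far above MEF, while from Cdh11 to Igf2 they lie below MEF, tightly for Egr1 and spread over several orders of magnitude for Col1a1 and Acta2.

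All of the listed naive pluripotency transcription factors were higher. Of 22 listed, 22 passed the filter, 22 were called higher and none lower, with a median log2 difference of 4.75, against 0.21 over all genes tested. The members had been listed as pluripotency genes, so the direction follows from the choice of list. Sox2, the partner of Oct4 on composite sites, was at 187, 234 and 314 FPKM in iPSC and 1.07 and 0.2397 in MEF, a log2 difference of 7.23, SE 0.19, adjusted p = 8.40e-13. Esrrb, an orphan nuclear receptor that acts downstream of the 2i inhibitors, was at 118, 178 and 236 and was listed at 0 in both MEF libraries (adjusted p = 3.85e-13). Tfcp2l1, a LIF target, was at 94.8, 112 and 131 against 0.0815 and 0.0227, a log2 difference of 6.77, SE 0.13, adjusted p = 1.66e-14. Utf1 was at 58.5, 119 and 167 and was listed at 0 in MEF (adjusted p = 5.23e-10). Every iPSC sample lay above both MEF libraries for each of these factors. The Klf genes started from a higher base: Klf4 was at 88.4, 125 and 209.5 in iPSC and at 11.9 and 11.8 in MEF, a log2 difference of 3.30, SE 0.24, adjusted p = 2.99e-08. Zfp42 (Rex1), a common marker of the naive state, was at 34.6, 117 and 185 FPKM and at 0 in MEF (adjusted p = 3.78e-07), a wider spread between iPSC samples than for the factors above.

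Signalling molecules, surface proteins and enzymes of the pluripotent state followed the factors. Of 25 listed, 24 were called higher, with a median log2 difference of 5.36. Dppa5a, an RNA-binding protein, was among the 10 highest genes of iPSC, at 1176, 2103 and 3702 FPKM, and was listed at 0 in both MEF libraries (adjusted p = 2.07e-13). Dppa5a has processed copies in the genome, so its level is uncertain to the extent that reads were shared. Tdh, the threonine dehydrogenase that feeds one-carbon metabolism of mouse pluripotent cells, was at 239, 329 and 381 and at 0 in MEF (adjusted p = 1.66e-14). Tdgf1, the Nodal co-receptor, was at 160.2, 232 and 434 and at 0 in MEF (adjusted p = 6.88e-13). L1td1, an RNA-binding protein derived from a LINE-1 element, was at 116, 180.2 and 258 and likewise at 0 in MEF (adjusted p = 2.07e-12). The glucose transporter Slc2a3 was at 306, 459 and 804 against 2.06 and 2.62, a log2 difference of 7.13, SE 0.30, adjusted p = 8.37e-11. Outside the lists, Rbmxl2, an RNA-binding retrogene of the germline, belonged to the 10 largest increases by the naming rule, at 116, 148 and 172 and at 0 in MEF (adjusted p = 2.24e-14). Spp1, a secreted phosphoprotein listed with them, was the member not called. It was at 331, 415 and 471 in iPSC and 141 and 324 in MEF, with a log2 difference of 0.92. Without MEF 2, the higher of the MEF values, it was called at 1.52 (adjusted p = 5.81e-06), and it was also called with the number in the labels as a replicate block (1.03, adjusted p = 0.00481).

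Most listed genes of the later, formative and primed states were called higher as well, at levels that varied widely between genes. Of 12 listed, 11 passed the filter, with 8 called higher and 1 lower. Dnmt3b was at 24.4, 47.9 and 65.6 against 0.808 and 0.6802 (log2 difference 4.77, SE 0.20, adjusted p = 8.41e-11) and Foxd3 at 15.8, 23.05 and 35.5 against 1.22 and 0.162 (log2 difference 3.91, SE 0.31, adjusted p = 7.56e-08). Otx2, by contrast, stood at only 0.217, 1.62 and 5.58 FPKM and was listed at 0 in MEF (adjusted p = 0.0117), and Fgf5 was under the filter. Sfrp2, a secreted Wnt modulator, was lower, at 0.799, 1.62 and 2.69 against 9.46 and 2.72 (log2 difference -1.23, SE 0.31, adjusted p = 0.00246), and this rested on MEF 1, without which the difference was -0.49 (adjusted p = 0.204). The Otx2 call was lost without either MEF library (adjusted p = 0.0741 and 0.0745).

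On the other side, the transcription factors of the mesenchyme were lower almost without exception. Of 39 listed, 34 passed the filter, 32 were called lower and none higher, with a median log2 difference of -3.003. Prrx1, a homeodomain factor of limb and connective tissue mesenchyme, was at 0, 0.222 and 13.8 FPKM in iPSC and 91.4 and 94.8 in MEF, a log2 difference of -5.73, SE 0.81, adjusted p = 1.98e-05. Twist2 was at 0, 0.0755 and 6.91 against 44.1 and 49.7 (log2 difference -5.01, SE 0.58, adjusted p = 3.20e-06) and Prrx2 at 0, 0.867 and 29.4 against 72.4 and 53.7 (log2 difference -4.50, SE 1.00, adjusted p = 0.001095). In each of them 1 iPSC sample, NanogN70 iPSC1 clone 9, was the highest. Egr1, an immediate early gene that responds to serum and ERK signalling, was at 0.0312, 0.166 and 0.372 in iPSC against 25.98 and 29.2 in MEF (log2 difference -4.62, SE 0.13, adjusted p = 1.40e-12), so that every iPSC sample, clone 9 included, was under 0.4 FPKM. The AP-1 gene Junb was at 6.300, 8.296 and 13.9 against 55.8 and 57.2 (log2 difference -2.61, SE 0.23, adjusted p = 2.01e-07). Jund and Tead1 were the tested members that were not called, and Jund was at 25.4, 33.8 and 60.4 in iPSC and 52.1 and 45.1 in MEF, a gene whose MEF level differed more than 2-fold between both deposited tables that hold these MEF.

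Matrix genes had the lowest median of the lists. All 34 collagen and matrix genes that passed the filter, of 35 listed, were called lower, with a median log2 difference of -5.71. Col1a1, the main fibrillar collagen chain, was at 0.407, 6.28 and 931 FPKM in iPSC and 3890.5 and 3662 in MEF (log2 difference -8.20, SE 2.24, adjusted p = 0.00462), and Col1a2 at 0.0358, 2.36 and 303 against 2143 and 1863 (log2 difference -8.23, SE 1.93, adjusted p = 0.00158). Bgn, a small proteoglycan that binds collagen, was at 0, 1.07 and 157 against 1259 and 1285 (log2 difference -8.18, SE 1.65, adjusted p = 4.88e-04). Col3a1 was at 0, 0.392 and 47.4 against 788 and 333 (log2 difference -7.54, SE 1.25, adjusted p = 9.02e-05). The groups did not overlap for these 4 genes, but their standard errors were large because the iPSC samples differed over orders of magnitude. Eln, elastin, was at 0, 0.1202 and 0.696 against 295 and 65.6 (log2 difference -6.90, SE 0.36, adjusted p = 9.14e-10), and no iPSC sample exceeded 1 FPKM. The fit pools the spread of all groups, and most samples are iPSC. The smaller error of Eln thus says little about the spread between both MEF libraries. The same holds for Ptn, Cxcl12 and Igfbp4 below, which were also low in every iPSC sample. Col6a1 was at 0, 0.0873 and 12.5 against 220.5 and 201 (log2 difference -7.00, SE 0.75, adjusted p = 1.47e-06), and Lox and Thbs1, a collagen crosslinker and a matrix glycoprotein, were among the genes with the widest range over iPSC, at 0.1602, 4.27 and 305 and 0.647, 4.01 and 418. The call of Lox was lost without either MEF library (adjusted p = 0.0623 and 0.0555). Fn1, fibronectin, was kept at a sizeable level in iPSC, at 151, 221 and 354 against 906 and 1180.3 (log2 difference -2.26, SE 0.24, adjusted p = 1.23e-06).

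The contractile apparatus was lower throughout. All 22 listed genes were tested and called lower, with a median log2 difference of -4.91. Acta2, smooth muscle actin, was at 0, 2.48 and 255 FPKM in iPSC and 1094 and 1693 in MEF (log2 difference -7.74, SE 1.98, adjusted p = 0.00297). Tagln, an actin-binding protein of the same cells, was at 0.0112, 3.32 and 163 against 712 and 1176 (log2 difference -7.13, SE 1.67, adjusted p = 0.00155). The calcium-binding proteins S100a4 and S100a6 fell by a log2 difference of -6.33 and -6.10. Vim, the intermediate filament of fibroblasts, was at 67.2, 228 and 549 against 1829 and 2614 (log2 difference -3.59, SE 0.55, adjusted p = 4.23e-05), a level in iPSC that no collagen named above reached at the median. Cytoplasmic actins moved less: Actg1 was at 830.1, 1066 and 1382 against 2037 and 2375 (log2 difference -1.03, SE 0.15, adjusted p = 3.18e-05), and Actb was not called, at 805, 1357 and 1709.5 against 1395 and 2393. Actg1 fell short of the 2-fold limit with the NanogN70 iPSC alone (-0.97), with the iPSC1 samples alone (-0.97) and without MEF 2 (-0.92).

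Cell contacts changed in kind. Of 26 epithelial junction genes, 25 passed the filter, 18 were called higher and none lower, with a median log2 difference of 1.54. Cdh1, E-cadherin, was at 66.2, 93.6 and 110.2 in iPSC and 0 and 0.0204 in MEF (log2 difference 6.46, SE 0.16, adjusted p = 4.73e-13), and Epcam at 22.7, 41.7 and 65.1 against 0 and 0.106 (log2 difference 5.21, SE 0.35, adjusted p = 1.57e-08). The tight junction gene Cldn4 was at 23.4, 33.6 and 71.3 against 0.165 and 0.4997 (log2 difference 4.75, SE 0.29, adjusted p = 4.71e-09), and the protease inhibitor Spint1 at 25.9, 33.2 and 54.5 against 0.0898 and 0 (log2 difference 5.22, SE 0.29, adjusted p = 2.05e-09). Of the 20 mesenchymal adhesion and surface genes, 17 were called lower and 1 higher. Cdh11, a fibroblast cadherin, was at 0, 0.189 and 9.202 against 155 and 112 (log2 difference -6.39, SE 0.69, adjusted p = 1.57e-06). Thy1 was at 0.433, 2.95 and 24.8 against 131 and 222 (log2 difference -5.33, SE 0.88, adjusted p = 8.36e-05), and the receptor Axl at 0.2795, 0.865 and 22.3 against 91.8 and 215 (log2 difference -5.77, SE 0.88, adjusted p = 4.13e-05). Eng, a co-receptor of TGF-beta ligands, was the member called higher, at 16.5, 23.4 and 36.8 against 7.82 and 6.51 (log2 difference 1.62, SE 0.21, adjusted p = 7.50e-06).

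TGF-beta and YAP signalling genes and secreted factors followed the matrix. Of 22 listed signalling genes, 19 were called lower and 1 higher. Tgfb3 was at 0, 0.141 and 18.2 against 64.2 and 100.5 (log2 difference -5.46, SE 0.90, adjusted p = 8.74e-05), and Ltbp1, which holds latent TGF-beta in the matrix, at 0.583, 1.297 and 5.08 against 67.2 and 83.7 (log2 difference -5.01, SE 0.37, adjusted p = 3.20e-08). Smad7, an inhibitor of the pathway, was the member called higher, at 26.7, 39.6 and 56.98 against 13.4 and 16.6 (log2 difference 1.34, SE 0.21, adjusted p = 5.23e-05). Of 25 chemokines and secreted factors, 24 passed the filter, 20 were called lower and 1 higher. Cxcl12 was at 0, 0.0879 and 2.16 against 259 and 108 (log2 difference -7.10, SE 0.36, adjusted p = 7.83e-10), with a MEF level that also differed more than 2-fold between the tables. Ptn, a secreted heparin-binding factor outside the list, was at 0, 0.0435 and 0.546 against 307 and 105 (log2 difference -7.34, SE 0.27, adjusted p = 2.31e-11), and the matrix gene Mgp at 0, 0.0623 and 10.05 against 308 and 95.9 (log2 difference -6.94, SE 0.72, adjusted p = 1.07e-06). Igfbp2, which binds insulin-like growth factors, was higher, at 195, 309 and 509.8 against 59.7 and 18.2 (log2 difference 3.26, SE 0.42, adjusted p = 8.31e-06), while Igfbp4 was at 0, 0.432 and 0.918 against 126 and 34.01 (log2 difference -5.54, SE 0.34, adjusted p = 5.90e-09).

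**Figure D3:**
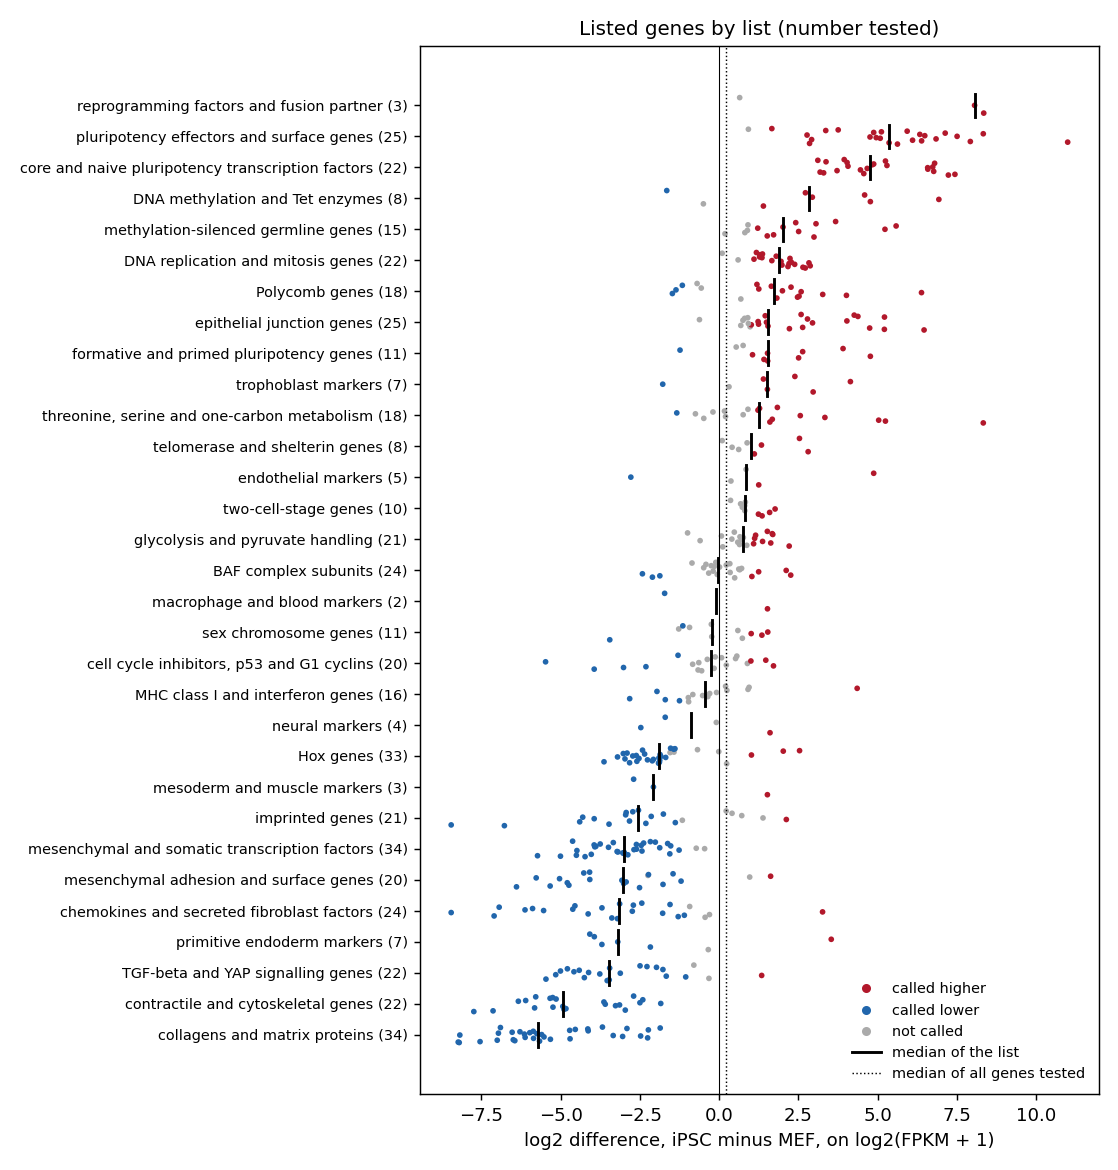
Log2 difference (iPSC minus MEF) of each tested gene in the 31 lists, with the number tested in parentheses, called genes in colour, the median of each list as a black line and the median of all genes tested as a dotted line. Medians run from -5.71 for collagens and matrix proteins to 5.36 for pluripotency effectors, and to 8.06 for the 3 factor genes, while BAF subunits centre near 0.

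Chromatin regulators were divided. Among DNA methylation and Tet enzymes 6 of 8 were called higher and 1 lower. Dnmt3l, the catalytically inactive partner of the de novo methyltransferases, was at 74.3, 104 and 289 and at 0 in MEF (adjusted p = 4.21e-09). Tet1, which oxidises methylcytosine, was at 24.2, 38.9 and 44.8 against 0.563 and 0.418 (log2 difference 4.59, SE 0.22, adjusted p = 4.00e-10), while Tet3 was at 0.6197, 1.23 and 3.54 against 6.703 and 5.97 (log2 difference -1.65, SE 0.31, adjusted p = 2.97e-04), a direction that turned to 0.28 when only the highest transcript of each gene was read. Of 18 Polycomb genes 12 were called higher and 3 lower. Epop (E130012A19Rik in the table), a PRC2 cofactor, was at 262, 444 and 589 against 4.03 and 4.04 (log2 difference 6.38, SE 0.27, adjusted p = 1.19e-10), and Jarid2 at 51.01, 72.5 and 122 against 3.81 and 3.25 (log2 difference 4.02, SE 0.23, adjusted p = 2.56e-09). Suz12, a core subunit, was at 92.4, 106 and 122 against 19.01 and 16.3 (log2 difference 2.52, SE 0.11, adjusted p = 1.54e-10). Phf19 and Yaf2 were among the members called lower, with log2 differences of -1.48 and -1.36.

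The BAF remodelling complex, to which NanogN70 is coupled, had calls in both directions. Of 25 listed subunits 24 passed the filter, 4 were called higher, 3 lower and 17 not called. Over all genes tested 21.7% were called higher and 18.7% lower. The median log2 difference of the subunits was -0.02. The ATPase Smarca4 (BRG1) was not called and was at 57.2, 67.02 and 82.4 in iPSC and 44.6 and 49.9 in MEF, while its paralogue Smarca2 (BRM) was at 0.4700, 1.05 and 1.74 against 8.83 and 6.58 (log2 difference -2.11, SE 0.25, adjusted p = 4.16e-06). Smarcc1 was at 46.6, 66.4 and 88.4 against 30.9 and 32.7 (log2 difference 1.03, SE 0.20, adjusted p = 3.07e-04) and Smarcc2 at 3.69, 6.68 and 8.15 against 28.8 and 24.8 (log2 difference -1.87, SE 0.16, adjusted p = 1.87e-07). Smarcd1 was at 31.4, 48.2 and 67.1 against 11.2 and 7.79 (log2 difference 2.26, SE 0.26, adjusted p = 2.88e-06) and Smarcd3 at 0.117, 1.64 and 3.92 against 14.1 and 10.8 (log2 difference -2.42, SE 0.48, adjusted p = 4.17e-04). In both of these pairs 1 paralogue was called higher and the other lower, and no iPSC value overlapped MEF in any of the 4. Such a lack of overlap held for 63.6% of all genes tested. Smarcc1 was close to the 2-fold limit and fell to 0.82 when rescaled to a common total, and Smarca2 turned to 0.57 when only the highest transcript was read. Actl6a and Arid1a were the other members called higher, with log2 differences of 2.12 and 1.25.

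Replication and mitosis genes were higher, at a smaller size than the identity genes. Of 22 listed, 20 were called higher and none lower, with a median log2 difference of 1.88. The helicase subunit Mcm5 was at 117, 147 and 189 FPKM against 19.8 and 19.99 (log2 difference 2.87, SE 0.15, adjusted p = 7.62e-10), and the licensing factor Cdt1 at 62.5, 99.2 and 108 against 12.8 and 11.8 (log2 difference 2.83, SE 0.17, adjusted p = 4.49e-09). Mki67, often used to count cycling cells, was not called, at 15.8, 21.3 and 25.5 against 17.4 and 20.8. Among 20 cell cycle inhibitors, p53 genes and G1 cyclins, 3 were called higher and 5 lower. Ccnd2, a G1 cyclin, was at 0.187, 1.51 and 38.4 against 112 and 163 (log2 difference -5.48, SE 1.05, adjusted p = 3.13e-04), and Cdkn1c, an imprinted inhibitor, at 0.636, 1.73 and 3.38 against 73.7 and 19.9 (log2 difference -3.94, SE 0.43, adjusted p = 1.81e-06). Trp53 was higher, at 205, 267 and 291 against 78.02 and 76.9 (log2 difference 1.71, SE 0.13, adjusted p = 6.61e-08). Cdkn2a, which codes for both p16 and p19ARF, was not called, at 12.9, 22.3 and 41.7 against 27.8 and 24.6. At the telomeres, 4 of 8 tested genes were called higher and none lower. Terf1 was at 32.9, 48.6 and 55.5 against 5.34 and 6.42 (log2 difference 2.81, SE 0.15, adjusted p = 1.52e-09). Tert, the catalytic subunit of telomerase, was at 1.57, 3.67 and 4.74 against 0.971 and 1.101 (log2 difference 1.11, SE 0.23, adjusted p = 5.16e-04). With the iPSC1 samples alone Tert fell short of the 2-fold limit (0.98).

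Tdh, Gldc and Amt, of threonine and glycine breakdown, were called higher. Of 18 threonine, serine and one-carbon genes 10 were called higher and 1 lower. After Tdh, described above, Gldc was at 28.03, 39.3 and 53.6 against 0.157 and 0 (log2 difference 5.25, SE 0.17, adjusted p = 6.94e-12) and Amt at 65.4, 78.97 and 97.7 against 1.72 and 1.19 (log2 difference 5.03, SE 0.13, adjusted p = 3.94e-13), both enzymes of glycine cleavage. Phgdh, the first step of serine synthesis, was lower, at 47.6, 84.9 and 132 against 219 and 212 (log2 difference -1.34, SE 0.27, adjusted p = 5.05e-04). Of 21 genes of glycolysis and pyruvate handling 9 were called higher and none lower. Hk2 was at 41.8, 53.4 and 88.02 against 8.76 and 13.4 (log2 difference 2.21, SE 0.22, adjusted p = 5.64e-07), and Ldha was not called, at 389, 510.4 and 822 against 376 and 683, with a sign that turns with the scaling.

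Genes of body position and imprinted genes were mostly lower. Of 39 Hox genes, which hold the position of a fibroblast along the body axis, 33 passed the filter, 25 were called lower and 3 higher. Hoxa5 was at 0, 0.292 and 1.87 against 23.8 and 11.1 (log2 difference -3.63, SE 0.36, adjusted p = 6.42e-07), and Hoxb6 at 0, 0 and 1.74 against 11.9 and 8.08 (log2 difference -3.21, SE 0.32, adjusted p = 7.78e-07). The members called higher belong to the posterior groups of their clusters: Hoxc13 was at 4.84, 7.08 and 9.96 against 0.461 and 0.261 (log2 difference 2.54, SE 0.25, adjusted p = 6.28e-07), Hoxc12 at 4.59, 5.14 and 11.3 against 0.424 and 0.825 (log2 difference 2.02, SE 0.22, adjusted p = 1.82e-06), and Hoxb13 at 0.308, 1.001 and 4.17 against 0.163 and 0 (log2 difference 1.02, SE 0.39, adjusted p = 0.0301). The Hoxb13 call was lost without either MEF library (adjusted p = 0.0984 and 0.177). Of 25 imprinted genes 21 passed the filter, 15 were called lower and 1 higher. Igf2, a fetal growth factor, was at 0.244, 2.45 and 25.5 against 2088 and 859.8 (log2 difference -8.45, SE 0.77, adjusted p = 2.92e-07), and the neighbouring lncRNA H19 at 2.85, 20.6 and 161 against 4035 and 1159.8 (log2 difference -6.77, SE 1.11, adjusted p = 7.85e-05). Dlk1 was at 0.0574, 0.245 and 0.7601 against 51.2 and 13.9 (log2 difference -4.40, SE 0.32, adjusted p = 3.11e-08), and Grb10 at 4.15, 10.1 and 29.8 against 305 and 176 (log2 difference -4.30, SE 0.49, adjusted p = 2.38e-06). Snrpn was the member called higher, at 16.4, 22.1 and 32.4 against 3.61 and 5.05 (log2 difference 2.12, SE 0.17, adjusted p = 8.15e-08). FPKM values do not part the parental alleles, and the MEF libraries differed from each other for H19, Igf2 and Dlk1 by more than 2-fold.

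Germline genes that methylation silences in somatic cells were partly detected. Of 20 listed, 15 passed the filter, and 11 were called higher and none lower. Rpl10l, a retrogene of a ribosomal protein whose reads may be shared with its parent, was at 15.3, 50.6 and 78.97 and at 0 in MEF (adjusted p = 2.89e-08). Tex19.1 was at 22.01, 36.5 and 54.9 and at 0 in MEF (adjusted p = 2.54e-09), and Fkbp6 at 1.06, 13.7 and 21.8 and at 0 in MEF (adjusted p = 5.34e-05). Dazl was at 1.92, 5.78 and 18.7 and at 0 in MEF (adjusted p = 3.65e-04). Of 15 genes of the 2-cell stage 10 passed the filter and 4 were called higher, all of them Zscan4 copies. Zscan4f was the highest, at 0.0799, 2.85 and 4.39, and was at 0 in MEF (adjusted p = 0.00257). The Zscan4 genes are near-identical, and how reads were shared among them is uncertain.

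Markers of other cell types moved in both directions, and their part in the results was not tested. The summed FPKM of 10 neural markers was 20.2 to 45.5 in iPSC and 44.3 and 74.0 in MEF, that of 10 mesoderm and muscle markers 4.29 to 14.6 and 25.8 and 37.2, and that of 10 macrophage and blood markers 3.87 to 16.7 and 5.22 and 12.5. Of the neural markers 4 passed the filter, 1 called higher and 2 lower, of the mesoderm and muscle markers 3, 1 called higher and 2 lower, and of the macrophage and blood markers 2, 1 in each direction. The sum of 10 primitive endoderm markers was 32.6 to 118 in iPSC and 309 and 357 in MEF, and of 7 tested 5 were called lower and 1 higher. Most of the MEF sum was the basement membrane collagen Col4a1, at 3.29, 10.2 and 75.9 against 178 and 244 (log2 difference -3.94, SE 0.92, adjusted p = 0.00153). Lama1, a laminin chain, was the member called higher, at 16.7, 21.7 and 31.7 against 1.12 and 0.797 (log2 difference 3.54, SE 0.20, adjusted p = 2.20e-09). Sox17, Sox7 and Foxa2 were under 1 FPKM in every iPSC and MEF sample. The 10 trophoblast markers summed to 27.3 to 53.9 FPKM in iPSC and 6.19 and 7.31 in MEF, and of 7 tested 5 were called higher and 1 lower. Among the first, Tfap2c was at 5.79, 16.3 and 29.00 and at 0 in MEF (adjusted p = 1.51e-07), and Cdx2, the defining factor of trophectoderm, at 1.89, 8.18 and 12.2 and at 0 in MEF (adjusted p = 1.43e-04). The keratin Krt7 was the member called lower, at 0.0528, 0.577 and 1.49 against 4.86 and 4.002 (log2 difference -1.78, SE 0.28, adjusted p = 4.94e-05). Elf5, Hand1 and Prl3d1 were under 1 FPKM in every iPSC and MEF sample. The 8 endothelial markers summed to 21.99 to 43.6 in iPSC and 5.68 and 14.3 in MEF, and of 5 tested 2 were called higher and 1 lower. Of that sum Pecam1, which pluripotent cells also express, held 18.5, 29.6 and 38.98 FPKM, and Cdh5 and Emcn were under 1 in every iPSC and MEF sample. Of 26 MHC class I and interferon genes 16 passed the filter, 4 were called lower and 1 higher. B2m was at 8.81, 22.8 and 103 against 191 and 141 (log2 difference -2.82, SE 0.63, adjusted p = 0.00107), and Ifitm1 was higher, at 44.4, 92.97 and 137 against 6.12 and 1.81 (log2 difference 4.35, SE 0.37, adjusted p = 1.47e-07).

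Levels of fibroblast markers differed between the iPSC samples. The labels name all 12 as iPSC, and 12 pluripotent markers had a summed level of 2532 to 6244.5 FPKM in them against 0.512 and 1.38 in MEF. The 12 fibroblast markers summed to 1944 FPKM in NanogN70 iPSC1 clone 9 and to 681 in Nanog iPSC1 clone 3, which is 21.2% and 7.43% of the MEF mean. The other 10 samples held 81.5 to 346 FPKM (0.888% to 3.77%), most of it Vim in some of them. Marker by marker, the median level was 14.9% of MEF in clone 9, 5.78% in clone 3, 2.36% in Nanog iPSC1 clone 1, 2.08% in NanogN70 iPSC1 clone 8 and 1.21% in NanogN70 iPSC1 clone 4. It was under 0.5% in the other 7. All 5 samples of passage 5, all of them iPSC1 and from both combinations, thus lay above the samples of passages 2 and 6, and the part of passage was not tested. Sample 1-2 of passage 6 was at 0.154%, against 2.36% for the sample 1 of passage 5 with the same clone number.

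**Figure D4:**
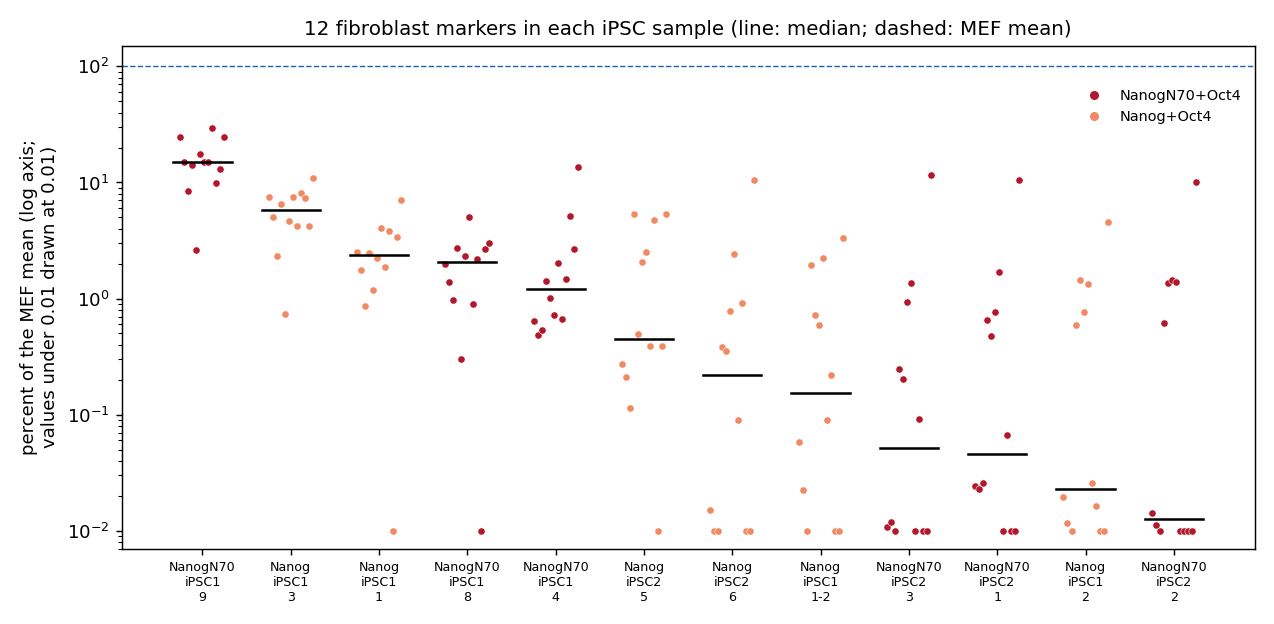
Each of 12 fibroblast markers as percent of its MEF mean (log axis) in the 12 iPSC samples, sorted by the median (black line), with values under 0.01% drawn at 0.01% and the dashed line at the MEF mean. NanogN70 iPSC1 clone 9 and Nanog iPSC1 clone 3 lie highest, with medians of 14.9% and 5.78%, and 7 samples have a median under 0.5%.

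The share of the MEF level that clone 9 held differed between genes. Taking the 74 genes that were at 50 FPKM or more in both MEF libraries and under 1% of MEF on average in the NanogN70 iPSC2 samples, clone 9 had a median of 19.5% of the MEF level (quartiles 10.4% and 32.9%) and clone 3 a median of 6.77%. Ccdc80, Timp3 and Timp2, secreted matrix proteins and protease inhibitors, were at 116%, 93.7% and 81.5% of MEF in clone 9. Ptn, Eln and Cxcl12 were at 0.0625%, 0.263% and 1.18%, although they were as high in MEF. These 6 genes were chosen after their values were seen, from either end of the order. In the same order clone 3 had 36.6%, 28.7% and 25.9% for the first 3, and 0%, 0.0788% and 0.251% for the last 3. The source of these reads was not tested. In all, 46 called genes had an iPSC sample at or past the nearest MEF value while the median iPSC sample was at least 4-fold from MEF. The 10 with the largest difference included Timp3, Ccdc80, Inhba and Grem1, and clone 9 was at or past the nearest MEF value in all of them. They also included Rps28, which was called higher and where clone 9 was at 0, below both MEF values. Without clones 9 and 3, which was tried after seeing the data, 2946 genes were called higher and 2563 lower.

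Rps28, a ribosomal protein gene, was called higher with a wide spread over iPSC. It was at 0, 113 and 704 FPKM in iPSC and 0.426 and 0.266 in MEF (log2 difference 5.36, SE 1.94, adjusted p = 0.0233), which was not called without either MEF library (adjusted p = 0.105 and 0.116), with a value of 0 in clone 9 and of 704 in NanogN70 iPSC1 clone 8. As a gene that every cell uses, it is listed at 0 or near 0 in 3 samples, and its values are given here only as the table has them.

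The genes of each chromosome were then compared between samples, over the 5590 tested genes with a position and a mean of 10 FPKM or more in iPSC. Each gene was set relative to its median over the 12 iPSC samples, and the median was taken per chromosome. Over 19 autosomes and 12 iPSC samples, 226 of 228 such medians lay between -0.069 and 0.067 on the log2 scale. The remaining 2 belonged to Nanog iPSC2 clone 5: chromosome 6 stood at 0.47 over 246 genes and chromosome 19 at 0.49 over 210 genes. On these chromosomes 93.1% and 97.1% of the genes of clone 5 were above the median iPSC sample, with quartiles of 0.31 to 0.65 and 0.34 to 0.65. The mES library stood at 0.47 on chromosome 6, 0.52 on chromosome 8 and 0.24 on chromosome 11. Copy number was not measured here. Leaving out clone 5 left the counts of called genes at 2879 higher and 2512 lower.

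**Figure D5:**
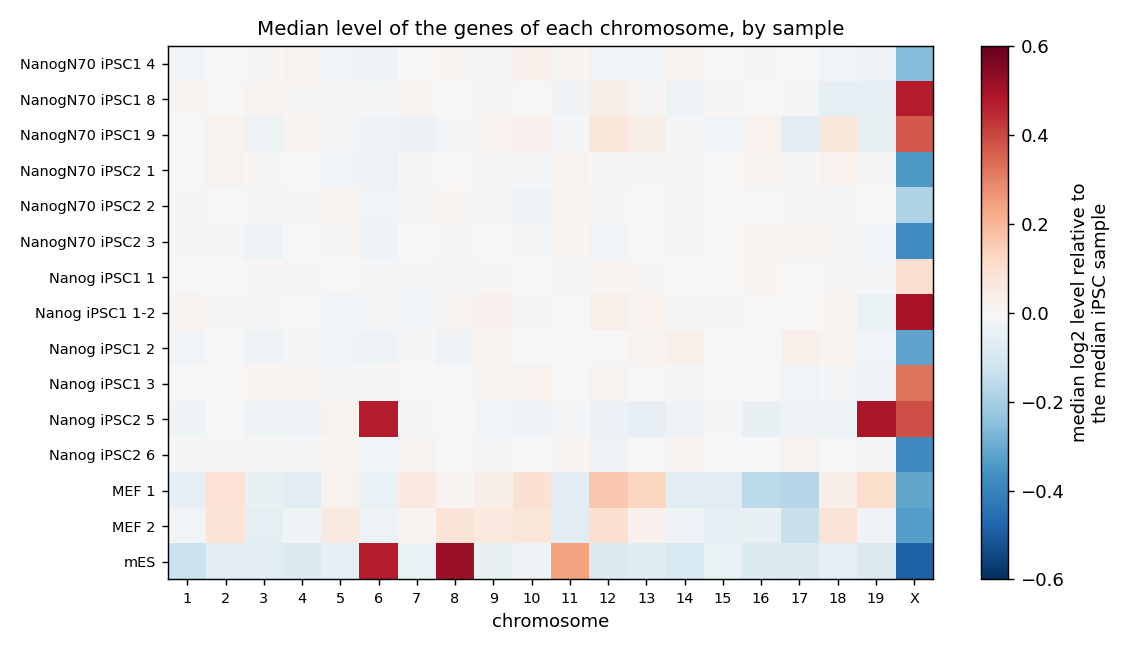
Median log2 level of the genes of each chromosome (columns) in each sample (rows), relative to the median iPSC sample, over genes at a mean of 10 FPKM or more. Chromosomes 6 and 19 of Nanog iPSC2 clone 5 (0.47 and 0.49), chromosomes 6, 8 and 11 of mES and the X chromosome stand out, while the other autosomes of the iPSC samples lie within -0.069 and 0.067.

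The X chromosome divided the iPSC samples as well. Over 186 X-linked genes the median lay between -0.38 and -0.19 in 6 samples (NanogN70 clones 1, 2, 3 and 4, and Nanog clones 2 and 6), at 0.10 in Nanog clone 1, and between 0.33 and 0.50 in 5 samples (NanogN70 clones 8 and 9, and Nanog clones 1-2, 3 and 5). MEF stood at -0.31 and -0.33. Eif2s3y, a Y-linked translation factor, was at 13.6 to 34.2 FPKM in 5 of the 6 samples with a low X median and at 4.13 in the other one, NanogN70 clone 4, and at 0 to 3.61 in the other 6. Ddx3y ran alongside, at 6.13 to 25.6 FPKM in the first 6 and 0 to 4.71 in the others. Kdm5d, also Y-linked, did not divide the samples in this way. It was at 0, 0.0128 and 0.206 in iPSC, low in samples of both kinds, against 1.30 and 1.29 in MEF. It was called lower (log2 difference -1.15, SE 0.11, adjusted p = 6.21e-07). MEF held 12.6 and 14.4 FPKM of Eif2s3y together with Xist, the RNA that coats the inactive X chromosome, at 17.5 and 10.9. In iPSC Xist was at 0.0903, 0.311 and 0.907 (log2 difference -3.45, SE 0.23, adjusted p = 1.14e-08), in samples of both kinds. The embryos were of either sex according to the study's methods, and the sex of each clone is not given in the labels. Over all 494 tested X-linked genes 139 were called higher and 87 lower, and their median log2 difference was 0.52, against 0.21 over all genes.

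For single values per library the two-sided exact permutation test ran over all 91 ways to choose 2 of 14 samples, where the smallest p is 0.011, with Benjamini-Hochberg adjustment over 3 values. The number of genes at 1 FPKM or more was 11270 ± 265 in iPSC (SD, n = 12) and 11322 ± 220 in MEF (SD, n = 2; permutation p = 0.813, adjusted p = 0.813). The share of all FPKM in the 100 highest genes was 32.2% ± 1.7 in iPSC and 29.3% ± 0.5 in MEF (permutation p = 0.0549, adjusted p = 0.165). The share in 13 mitochondrially encoded genes was 5.64% ± 1.22 and 4.41% ± 0.94 (permutation p = 0.209, adjusted p = 0.313). None of these differences passed the test. The highest genes were partly common: COX1, Eef1a1, Ftl1 and Rplp1 stood among the 10 highest in both groups. Dppa5a and Hsp90ab1 were among the 10 highest of iPSC, at 2249.6, 2687 and 2843 FPKM against 836 and 918 for Hsp90ab1 (log2 difference 1.58, SE 0.12, adjusted p = 4.50e-08), and Col1a1, Col1a2, H19 and Vim among those of MEF. The 5 highest genes with a log2 difference under 0.1 in size were CYTB, ND6, Cfl1, Ldha and Rpl17-ps10. None of them was called.

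Without a block, no gene was called between the combinations used to make the iPSC. Between the 6 NanogN70 and the 6 Nanog samples, limma called 0 of 13312 genes (0.0%), with 167 genes at an unadjusted p under 0.05. These 167 are less than the share of 0.05 that chance alone would give. The absence of calls does not show that the combinations are alike. With the clone number as a replicate block it called 38, although nothing in the labels pairs the clones. Each combination has its own values against the same 2 MEF libraries: the NanogN70 iPSC alone gave 2845 genes higher and 2481 lower, and the Nanog iPSC alone 2904 and 2513. Pou5f1 was at 328 ± 35.9 FPKM (SD, n = 6) with NanogN70 and 346 ± 18.2 (SD, n = 6) with Nanog. Nanog itself was at 304 ± 67.7 and 336 ± 37.7. For both genes the combinations differed by less than the SD of the NanogN70 samples.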

How the data were processed

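Established iPSC and MEF were measured by mRNA-seq. Per the submitters' processing notes the reads were handled with Trim Galore 0.6.4, HISAT2 2.2.1 and StringTie 2.2.1 on mm10, and the authors deposited FPKM per transcript. Annotation and strand setting are not given in the sources used here, and FPKM keep no depth, so the depth behind each value is unknown and no counting interval is given.

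The 106520 transcripts were summed by symbol to 35976 genes. Genes at 1 FPKM or more in at least 2 of 14 samples (13312) were tested on log2(FPKM + 1) with limma 3.58.1 in R 4.3.3 (intensity trend, 1 mean per group, iPSC as the mean of both groups against MEF). Calls required a 2-fold difference and a p under 0.05 after Benjamini-Hochberg adjustment. Single values per library had an exact two-sided permutation test. On data simulated on these 13312 genes, 193 of 200 genes changed by 2 on the log2 scale were called (96.5%), with 4 others. The simulated noise was normal, independent between genes and samples, and of equal size in iPSC and MEF. Far fewer genes were changed than were called in the data. The simulation thus checks the calculation and gives no error rate for these data.

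The members and gene lists were chosen with earlier results of these data known. Genes were named by rule: the delivered factors, the up to 4 called genes of each list with the largest difference in each direction and members named for their role, the 10 largest increases and decreases among genes at 1 FPKM or more throughout the higher group, the 10 with the widest range over iPSC, the 10 highest in each group, the 10 called genes with an iPSC sample at or past MEF, and the 5 highest with a difference under 0.1. Only part of the genes that the rule covers is printed. Some results are not reported here. MEF are also in a second deposited table of FPKM per gene, the 31 samples of which were not otherwise used. Of 326 listed genes at 5 FPKM or more in MEF, 279 (85.6%) had MEF levels within 1.5-fold between both tables, and 21 differed more than 2-fold. Over all genes compared, 12528 in MEF 1 and 12198 in MEF 2, 88.5% and 88.6% were within 2-fold on log2(FPKM + 1). The correlations across these genes were 0.873 and 0.872. Alternatives changed the pseudocount, the filter, the scaling, the fold limit, the reading of transcripts, the model terms and the samples. Promoters are from RefSeq.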

Additional observations from a re-analysis of the deposited data

Results flagged for a closer look

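In groups of 6 iPSC samples, the highest or lowest sample was examined by Dixon's ratio, its gap to the nearest other sample divided by the range of the group, with a limit of 0.625. Of 276 groups of values 34 were past it. Chance passes about 1 in 20 groups, but only where groups are independent. Genes that move together in 1 sample are not, and some were named for a wide range over iPSC. The count therefore cannot be read against that share. The sample furthest from the rest was most often NanogN70 iPSC1 clone 9, in 14 of them. It was the highest of the NanogN70 samples for Prrx1 (0.775), Twist2 (0.677), Cdh11 (0.822), Axl (0.715), Tgfb3 (0.784), Ltbp1 (0.65), Ccnd2 (0.634), Igf2 (0.654), Hoxb6 (0.814), Cxcl12 (0.695), Mgp (0.893) and Col6a1 (0.671). It was the lowest for Tdgf1 (0.809) and for the chromosome 17 median (0.687).

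Nanog iPSC2 clone 5 was apart in 8. Its chromosome 6 and chromosome 19 medians were highest (0.934 and 0.935), and those of chromosomes 13 and 16 lowest (0.651 and 0.73). It was the highest Nanog sample for Amt (0.684), Hk2 (0.727) and Junb (0.733) and the lowest for Zscan4f (0.732). Nanog iPSC1 clone 3 was the highest for Hoxb6 (0.909), Cxcl12 (0.705) and Mgp (0.736).

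Nanog iPSC1 clone 2 was the highest for Phf19 (0.804) and the lowest for Dnmt3b (0.727), Smarcc2 (0.741), Fkbp6 (0.65) and Actb (0.626). NanogN70 iPSC1 clone 8 was the highest for Nanog (0.691) and Klf4 (0.628), and NanogN70 iPSC1 clone 4 for Dnmt3l (0.751). Ptn was above 0 in 1 Nanog sample, clone 1-2, which gives the ratio of 1.0.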

How the results depend on the processing

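Under the alternatives, 3511 values of 114 genes named in the text were read. Of these, 3465 kept their direction and their side of the threshold, 29 fell short of it, 5 came past it and 12 turned direction. Without the fold limit 9250 genes were called, 5336 higher and 3914 lower. Leaving out 1 library at a time gave 4687 to 5495 called genes, 2644 to 2956 higher and 1924 to 2539 lower. The lowest numbers came without a MEF library, 1924 lower without MEF 1 and 2644 higher without MEF 2, where the lone MEF sample is assumed to vary like the iPSC. Rescaled to a common total, 46.8% of the calls were higher, against 53.7%.

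With only the highest transcript of each gene, Ss18 turned to -0.24, Tet3 to 0.28, Smarca2 to 0.57 and Cdkn2a to 0.21. Cdkn2a was at 0.15 with the iPSC1 samples alone. Ldha turned to -0.16 rescaled to a common total, -0.24 after quantile normalization and -0.0709 with the iPSC2 samples alone. It ran from -0.36 without MEF 1 to 0.50 without MEF 2. Mki67 turned to -0.13 rescaled, -0.0393 after quantile normalization, and -0.0232 without MEF 1 against 0.22 without MEF 2. Apart from the single-transcript alternative, whose own construction drops transcripts, the cause was not tested.

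The number of genes at 1 FPKM or more differed by -52.2 (iPSC minus MEF), by 376 at a limit of 0.1 FPKM, and by -208 to 103 with 1 library left out. The share of FPKM in the 100 highest genes differed by 2.93 percentage points, and by 2.60 to 3.26 with 1 library left out, past an unadjusted p of 0.05 in 4 of these (clones 4, 9, 2 and 5). The number in the labels was also used as a replicate block. It gave 3027 genes called higher and 2617 lower, and 38 between the combinations in place of 0. Nothing in the labels says that the numbers pair the samples: deviations of same-numbered samples correlated between -0.62 and 0.24. Unknown depth limits low genes most.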
